A study of Mus musculus with 6 samples.

Results

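The genes described here are 10 regulators of the G1 phase of the cell cycle: the D cyclins Ccnd1, Ccnd2 and Ccnd3, their partner kinases Cdk4 and Cdk6, the kinase inhibitors Cdkn2a, Cdkn2c and Cdkn1b, and the ubiquitin ligase subunit Skp2 with its cofactor Cks1b. They were taken by name from the array annotation, keeping each probe set (a group of short probes read as 1 value) tied to exactly 1 of these symbols. That gave 31 probe sets of 45037 on the array, for 10 of 10 genes. RNA came from sarcoma cells of C57BL6/J mice, in 3 Dicer null and 3 Dicer heterozygous samples, all grown to confluence before RNA was taken. Dicer null cells have no working copy of the Dicer gene and Dicer heterozygous cells keep 1. The labels name no other allele and no driver of the deletion. They also do not say whether samples with the same genotype are separate lines or cultures of the same line, so p-values measure only the spread between these samples.

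In G1, D cyclins bind and activate Cdk4 or Cdk6, which phosphorylate the retinoblastoma protein and so release E2F transcription factors to start S phase. The INK4 inhibitors, among them the products of Cdkn2a and Cdkn2c, block Cdk4 and Cdk6, while p27, the product of Cdkn1b, blocks cyclin E with Cdk2. Skp2, with Cks1 bound to it, recognises phosphorylated p27 and sends it to the proteasome, so the amount of p27 protein is set largely after transcription and was not measured by these arrays. Dicer cuts the precursors of microRNAs, short RNAs that find their target messages through a seed at bases 2 to 8.

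Several microRNA families are known to act on these genes, mostly from work in human cells: let-7 on CDK6 and CCND2, miR-15 and miR-16 on CCND1, CCND3 and CDK6, miR-34a on CDK4 and CDK6, and miR-221 and miR-222 on CDKN1B. Their mouse mature forms are shown because they are among the products that need Dicer. They come from RefSeq (GRCm38.p6), with the seed in capitals, and 8 of 8 names matched. The arrays measured none of them. Their seeds fall into 4 kinds: the 3 let-7 members share GAGGUAG, miR-15a and miR-16 share AGCAGCA, miR-221 and miR-222 share GCUACAU, and miR-34a has GGCAGUG.
let-7a-5p: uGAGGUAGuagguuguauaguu
let-7b-5p: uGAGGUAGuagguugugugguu
let-7g-5p: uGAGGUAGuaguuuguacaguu
miR-15a-5p: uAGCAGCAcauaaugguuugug
miR-16-5p: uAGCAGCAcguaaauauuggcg
miR-34a-5p: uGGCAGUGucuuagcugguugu
miR-221-3p: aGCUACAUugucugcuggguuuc
miR-222-3p: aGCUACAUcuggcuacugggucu

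Values are log2 GCRMA signals, on which a difference of 1 is a doubling. Of the 45037 probe sets, 24385 had a mean of at least 3 over the 6 arrays and were tested with limma, a moderated linear model. A probe set is called changed at a Benjamini-Hochberg adjusted p under 0.05 over all tested probe sets. By that rule 756 probe sets were called (3.1%), 394 of them higher (1.62%) and 362 lower (1.48%) in Dicer null arrays. Of 11425 tested genes, each read by its brightest probe set, 395 were called (3.46%). Heterozygous array 3 stood apart: the median of 32 proliferation genes, each relative to its own mean, was -1.02 there, against -0.06 and 0.03 in heterozygous arrays 1 and 2 and 0.23, 0.57 and 0.15 in null arrays 1, 2 and 3. Heterozygous array 1 stood apart in Krt18, a keratin, at 9.02 against 2.0 to 2.68 elsewhere, and in Thy1, a mesenchymal surface marker, at 4.29 against 1.45 to 1.77. Of 8 mesenchymal markers all but Thy1 were above a mean of 3, and the summed level of the 8 was 15.4 to 15.7 in null and 15.5 to 15.8 in heterozygous arrays (log2). All 6 endothelial markers and 6 of 7 leukocyte markers lay below 3, with summed levels of 4.61 to 4.82 and 5.36 to 5.79 in null arrays, and 4.41 to 4.47 and 5.59 to 6.50 in heterozygous arrays. Of 6 epithelial markers 3 lay below 3, and the summed level was 6.84 to 8.60 in null and 5.63 to 10.0 in heterozygous arrays. Neither tested probe set of Dicer1 was called (limma adjusted p = 0.693 and 0.573). The deleted part of the gene is not given, so these values check nothing about the labels.

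Across the G1 regulators, Skp2, Ccnd3 and Cdkn2c rose in Dicer null cells and none fell. This is 3 of 10 genes, beside 1.45% of all tested genes called higher and 2% called lower. By probe set, 6 of 27 tested were called, all higher, and 4 were too dim to test. The median log2 difference of the 10 genes was 0.45, beside -0.01 over all tested genes, and 8 of 10 were above 0 (48.7% of all tested genes). The 3 values of one group lay wholly above those of the other for 5 of 10 genes, always with the null arrays on top. That held for 14.9% of all tested genes. An unadjusted p under 0.05 was reached by 5 of the 10 genes and by 24% of all tested genes. The 10 were chosen with earlier results of these data known, so these counts describe them and are no test of the group. In cultures measured in bulk, a change in the share of cells that are in a given cell cycle phase and a change in RNA per cell cannot be told apart.

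**Figure D1:**
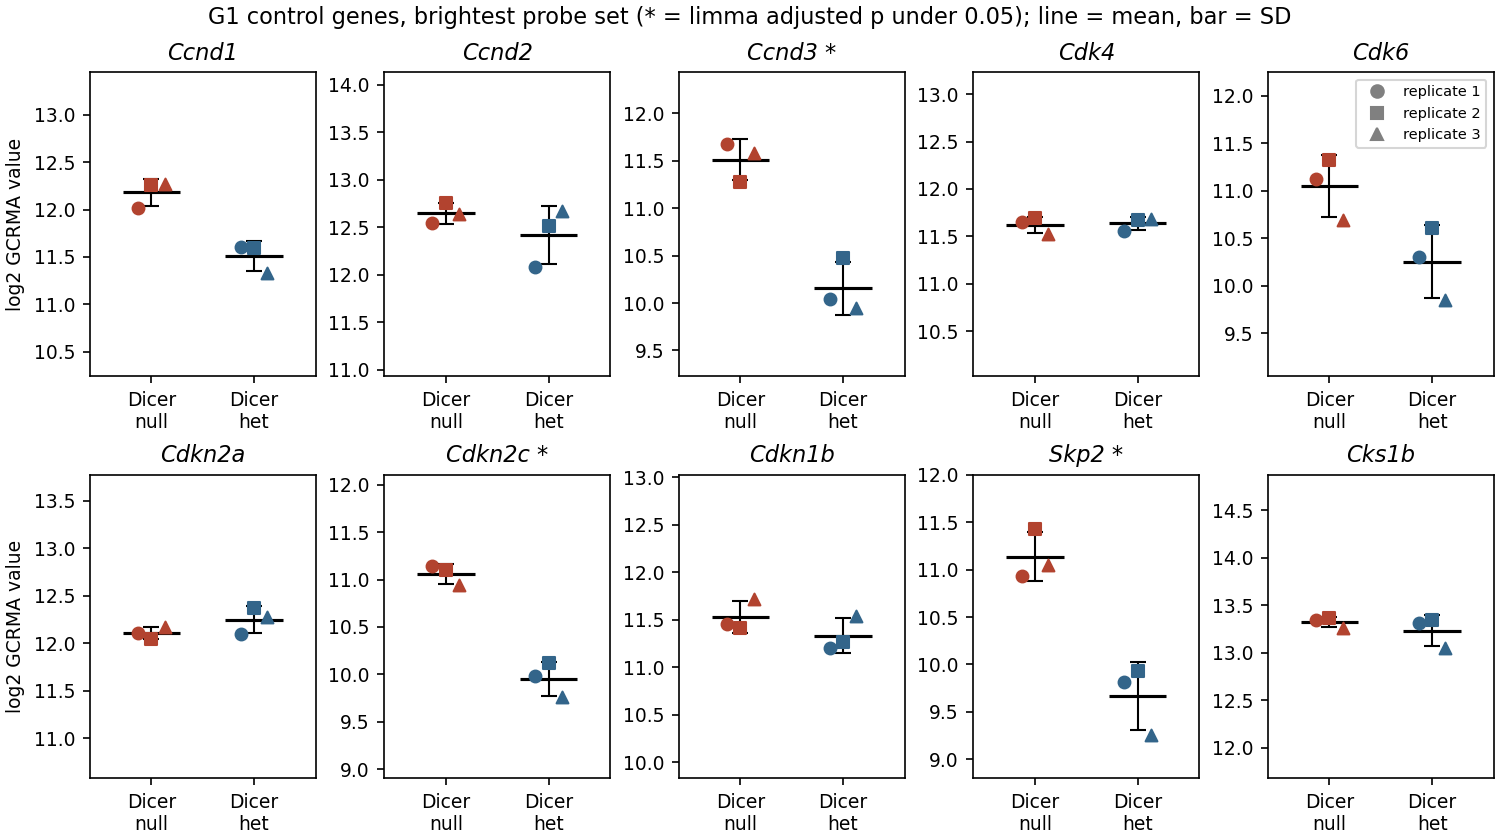
Log2 GCRMA value (vertical axes, each spanning the same range) of the brightest probe set of each of the 10 genes, in 3 Dicer null arrays (left, red) and 3 Dicer heterozygous arrays (right, blue); marker shape gives the replicate, lines the mean and bars the SD. The groups are apart for Ccnd1, Ccnd3, Cdk6, Cdkn2c and Skp2, and mixed for Ccnd2, Cdk4, Cdkn2a, Cdkn1b and Cks1b.

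Of the D cyclins, Ccnd3 rose. Its brightest probe set (1415907_at) stood at 11.68, 11.27 and 11.58 in null arrays 1, 2 and 3, and at 10.04, 10.47 and 9.95 in heterozygous arrays 1, 2 and 3. Every null array was above every heterozygous one, by 0.80 at the closest. Ccnd3, the D cyclin best known for its part in lymphocyte development, was thus 2.56-fold higher (log2 difference 1.36, SE 0.21, 95% interval 0.84 to 1.88, limma adjusted p = 0.0358). The call needed all 6 arrays. Without any 1 of them the log2 difference stayed between 1.26 and 1.52, with limma adjusted p = 0.0533 without heterozygous array 3 and 0.0695 to 0.136 without another. The other Ccnd3 probe sets were too dim to test, 1438805_at averaging 3.03 ± 0.48 in null and 2.05 ± 0.13 in heterozygous arrays (SD, n = 3 each) and 1444323_at 2.87 ± 0.21 and 2.53 ± 0.15.

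Ccnd1, the D cyclin that growth factor and Ras signals induce, was higher in null arrays without passing the test. The brightest probe set (1448698_at) read 12.02, 12.26 and 12.27 in null arrays and 11.61, 11.59 and 11.33 in heterozygous arrays, with no overlap (log2 difference 0.67, SE 0.17, limma adjusted p = 0.0894). The dimmer probe sets gave differences of 1.40 (1417420_at, SE 0.58, limma adjusted p = 0.217) and 1.11 (1417419_at, SE 0.45, limma adjusted p = 0.213). Their heterozygous arrays were far apart: 1417420_at read 9.38, 10.20 and 7.97 there, against 10.26, 11.13 and 10.37 in null arrays, the low value being that of array 3. Without it the difference of 1417420_at was 0.80. For all 3 probe sets of Ccnd1, heterozygous array 3 was the lowest of the 6. With trend and robust moderation, or with array weights, the brightest probe set passed (limma adjusted p = 0.0360 and 0.0449).

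Ccnd2, the third D cyclin and a let-7 target in human cells, showed no call in any of its 7 tested probe sets. The brightest (1434745_at) read 12.54, 12.76 and 12.64 in null arrays and 12.08, 12.51 and 12.67 in heterozygous arrays, so the groups overlapped. Its log2 difference was 0.23 (95% interval -0.27 to 0.72, limma adjusted p = 0.552). The 7 probe sets gave differences of 0.23 to 0.55, all positive, with adjusted p from 0.286 to 0.574. Without heterozygous array 1 they were 0.027 to 0.31, and that of the brightest was 0.057. Without heterozygous array 3 they were 0.35 to 0.74, and that of the brightest was 0.35. They shared an order of arrays: null array 2 was the highest and heterozygous array 1 the lowest in 7 of 7. Probe sets of a gene read the same RNA samples, so their likeness adds no replicates.

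Neither catalytic partner was called. Cdk6, which pairs with D cyclins and is a target of several of the microRNAs above, read 11.12, 11.33 and 10.69 in null arrays against 10.30, 10.61 and 9.85 in heterozygous arrays (1435338_at). The groups were apart by only 0.08 at the closest, and the log2 difference of 0.79 (SE 0.27, 95% interval 0.14 to 1.45) was not called (limma adjusted p = 0.156). A dimmer Cdk6 probe set (1455287_at) read 10.26, 10.39 and 10.12 in null arrays against 8.78, 9.53 and 9.13 in heterozygous arrays. Here the gap between groups was wider and the log2 difference 1.11 (SE 0.23, limma adjusted p = 0.0590), still short of the threshold. The remaining one (1460291_at) was below 3 in every array, at 2.44 ± 0.14 in null and 1.84 ± 0.13 in heterozygous arrays (SD, n = 3 each), and was not tested.

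Cdk4, the other D cyclin kinase, was level. The brightest probe set (1422441_x_at) read 11.65, 11.69 and 11.53 in null arrays and 11.56, 11.67 and 11.68 in heterozygous arrays, each within 0.10 of the mean. The log2 difference was -0.01 with a 95% interval of -0.37 to 0.35 (limma adjusted p = 0.972), and its other probe sets gave -0.14 and -0.02. A change of more than about 1.3-fold in either direction lies outside that interval.

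Of the INK4 inhibitors, Cdkn2c rose and Cdkn2a did not pass. Cdkn2c encodes p18, which binds Cdk4 and Cdk6, and has 1 probe set on the array (1416868_at). It read 11.14, 11.10 and 10.94 in null arrays and 9.98, 10.12 and 9.76 in heterozygous arrays. The lowest null array was 0.82 above the highest heterozygous one. Cdkn2c was 2.15-fold higher in null cells (log2 difference 1.11, SE 0.17, 95% interval 0.69 to 1.52, limma adjusted p = 0.0339). It remained called without heterozygous array 3 (difference 1.01, limma adjusted p = 0.0456) and lost the call without any other array (differences 1.07 to 1.19, limma adjusted p 0.0636 to 0.115).

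Cdkn2a gives rise to 2 unrelated proteins, the INK4 inhibitor p16 and Arf, from different starts, and its 1 probe set (1450140_a_at) is not said to tell them apart. It was bright in all 6 arrays, at 12.11, 12.04 and 12.17 in null and 12.10, 12.37 and 12.28 in heterozygous arrays. The groups overlapped, with a log2 difference of -0.14 (95% interval -0.52 to 0.24, limma adjusted p = 0.628). Without heterozygous array 1 it was -0.22 and without heterozygous array 2 -0.083.

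Cdkn1b, which encodes p27, was not called in either probe set. The brighter (1434045_at) read 11.45, 11.41 and 11.72 in null arrays and 11.20, 11.26 and 11.54 in heterozygous arrays, which overlap (log2 difference 0.19, 95% interval -0.25 to 0.63, limma adjusted p = 0.566). The dimmer (1419497_at) read 10.59, 10.22 and 11.03 in null arrays against 9.35, 10.29 and 10.59 in heterozygous arrays (log2 difference 0.54, SE 0.38, limma adjusted p = 0.443). In each probe set null array 3 was the highest and heterozygous array 1 the lowest. Without null array 3 the differences of the brighter and the dimmer were 0.097 and 0.33, and without heterozygous array 1 they were 0.13 and 0.17. Without heterozygous array 3 those of the brighter and the dimmer were 0.30 and 0.79.

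Skp2, the F-box protein that picks p27 for degradation, rose in 4 of its 5 tested probe sets. Its brightest probe set (1436000_a_at) read 10.93, 11.43 and 11.05 in null arrays and 9.81, 9.93 and 9.26 in heterozygous arrays. All null arrays were above all heterozygous ones, by 1.0 at the closest, and null array 2 was the highest. Skp2 was 2.77-fold higher in null cells (log2 difference 1.47, SE 0.25, 95% interval 0.87 to 2.07, limma adjusted p = 0.0408). In 5 of the 5 the groups did not overlap, beside 30.9% of all tested probe sets in either direction. The 5 read the same RNA samples, so they are not separate members to set against that share.

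The steepest Skp2 probe set, 1418969_at, read 7.95, 8.74 and 8.15 in null arrays against 5.95, 6.25 and 5.87 in heterozygous arrays. That is a 4.78-fold rise (log2 difference 2.26, SE 0.25, limma adjusted p = 0.0182). The called probe sets 1460247_a_at and 1449293_a_at gave log2 differences of 1.89 (SE 0.28, limma adjusted p = 0.0304) and 2.16 (SE 0.35, limma adjusted p = 0.0368). Of these 1449293_a_at was dim, at 5.20, 6.16 and 6.16 in null arrays. In heterozygous arrays it read 3.28, 4.08 and 3.68, near the minimum of 3. Probe set 1437033_a_at, at 1.43 (SE 0.29), just missed with a limma adjusted p = 0.0556. The sixth, 1425072_at, was below the minimum and level, at 2.87 ± 0.35 in null and 2.91 ± 0.09 in heterozygous arrays (SD, n = 3 each). The size of the rise thus depended on the probe set, from 2.70-fold to 4.78-fold among those tested. For the brightest probe set the call held without heterozygous array 3 (difference 1.27, limma adjusted p = 0.0459) but not without any other array (differences 1.32 to 1.6, limma adjusted p 0.0677 to 0.137). Probe set 1418969_at was called without heterozygous array 1 or 3 or null array 1 (limma adjusted p = 0.0368, 0.0307 and 0.0420) and not without another array.

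Cks1b, the small protein that Skp2 needs to hold p27, differed little. Its brightest probe set (1416698_a_at) read 13.34, 13.37 and 13.26 in null arrays and 13.31, 13.34 and 13.05 in heterozygous arrays, which overlap. The log2 difference was 0.09 (95% interval -0.30 to 0.48, limma adjusted p = 0.780). The other probe set (1448441_at) gave 0.13 (limma adjusted p = 0.716). In each of them heterozygous array 3 was the lowest, and without it the difference of the brightest was -0.0017.

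**Figure D2:**
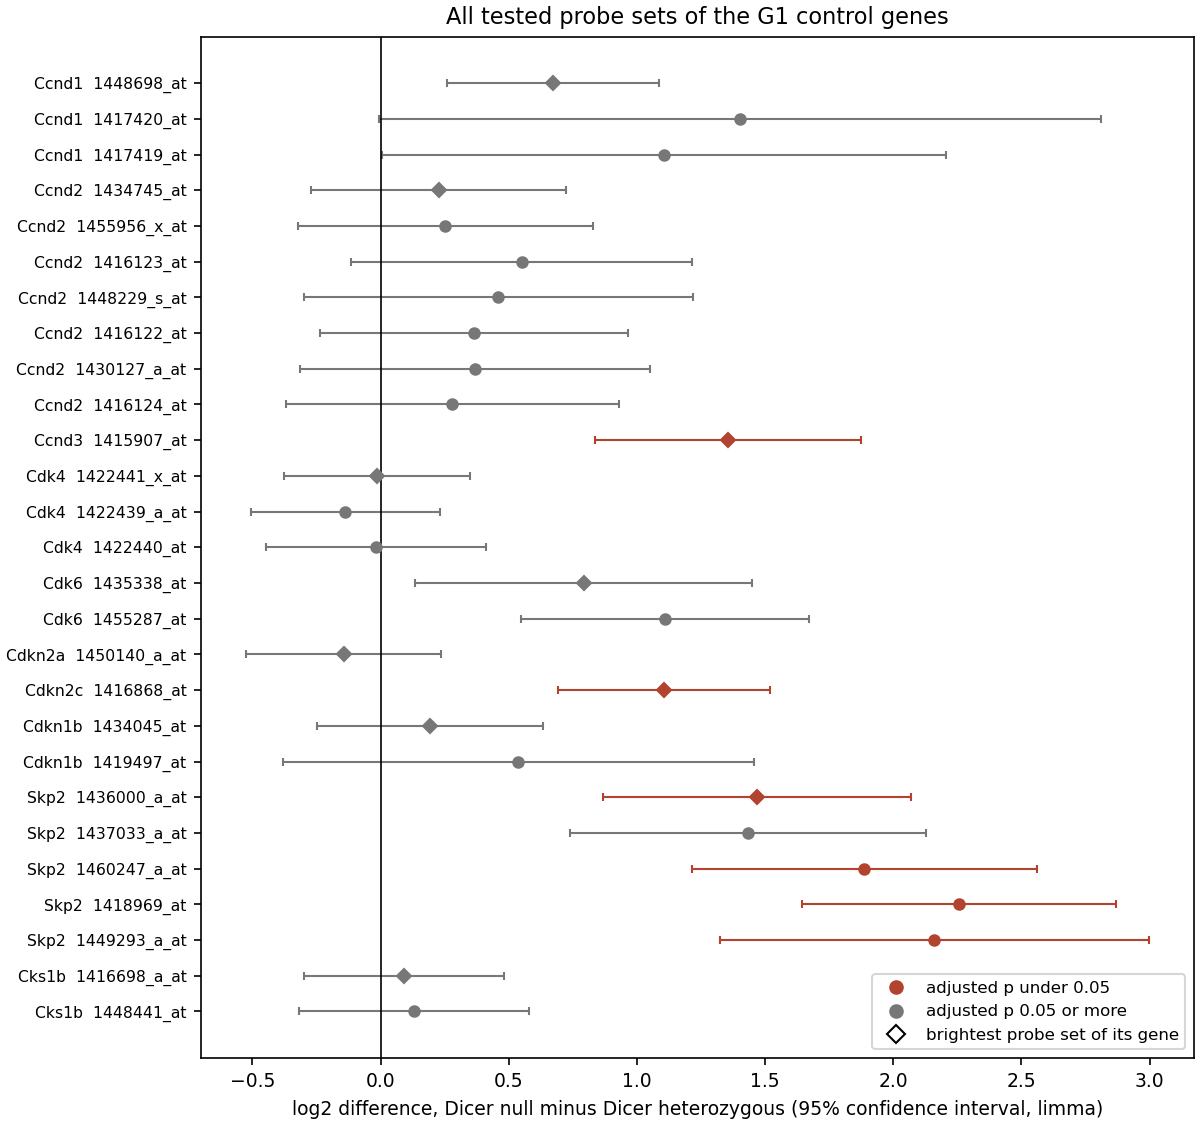
Log2 difference (Dicer null minus Dicer heterozygous, horizontal axis) with its 95% confidence interval for each of the 27 tested probe sets, in rows by gene; red marks an adjusted p under 0.05, diamonds the brightest probe set of a gene. The 5 Skp2 probe sets lie between 1.43 and 2.26, the 7 of Ccnd2 between 0.23 and 0.55, and the 3 of Cdk4 at or just below 0.

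Whether partner genes differed in their response was asked with the within-array difference of the brightest probe sets, in 6 pairs chosen with the results known. The exact permutation test, two-sided with 3 arrays per group, cannot give less than p = 0.10. The difference for Skp2 exceeded that for Cks1b by 1.38, and the within-array values did not overlap between the groups (exact p = 0.10, 0.12 adjusted over the 6 pairs). The same p-values and lack of overlap held for Ccnd3 over Ccnd2 (by 1.13), Ccnd3 over Ccnd1 (by 0.68), Cdk6 over Cdk4 (by 0.81) and Cdkn2c over Cdkn2a (by 1.25). For Ccnd1 over Ccnd2 the values overlapped (0.45, exact p = 0.30). None of the 6 passed the threshold, which this number of arrays does not allow.

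The promoters of the genes that rose are shown with that of Cks1b, the partner of Skp2 whose level differed little. Each runs 5′ to 3′ from 250 bases before to 50 after a transcript start, from RefSeq (GRCm38.p6). Of the 10 genes 8 matched, with 12 starts. For Skp2 both starts are shown, and for Cdkn2c and Ccnd3 the upstream of 2. Capitals mark matches, on either strand, to the CCAAT box (CCAAT), the cell cycle homology region (CHR, TTTGAA), the GC box (GGGCGG), the E box (CACGTG) and the E2F motif (TTTNNCGC).
Skp2 upstream start, chr15:9155376-9155675, minus strand: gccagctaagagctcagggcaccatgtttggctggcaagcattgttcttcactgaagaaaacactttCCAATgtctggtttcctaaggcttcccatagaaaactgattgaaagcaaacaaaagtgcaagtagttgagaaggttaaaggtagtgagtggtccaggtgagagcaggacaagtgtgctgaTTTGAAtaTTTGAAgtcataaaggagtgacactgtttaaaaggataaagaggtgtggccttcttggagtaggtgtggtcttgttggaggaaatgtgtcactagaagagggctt
Skp2 downstream start, chr15:9140405-9140704, minus strand: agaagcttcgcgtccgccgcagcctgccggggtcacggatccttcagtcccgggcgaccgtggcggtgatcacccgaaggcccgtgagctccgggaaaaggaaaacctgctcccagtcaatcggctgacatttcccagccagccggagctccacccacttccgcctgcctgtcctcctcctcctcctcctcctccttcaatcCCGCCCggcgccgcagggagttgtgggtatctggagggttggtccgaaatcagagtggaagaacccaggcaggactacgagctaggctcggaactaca
Cks1b, chr3:89418242-89418541, minus strand: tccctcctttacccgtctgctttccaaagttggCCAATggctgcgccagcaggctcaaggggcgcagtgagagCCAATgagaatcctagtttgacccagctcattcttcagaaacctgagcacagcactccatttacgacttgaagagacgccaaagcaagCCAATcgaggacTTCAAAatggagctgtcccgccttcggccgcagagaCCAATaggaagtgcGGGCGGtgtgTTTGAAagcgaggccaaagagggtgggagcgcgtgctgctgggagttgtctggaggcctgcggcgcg
Cdkn2c upstream start, chr4:109666707-109667006, minus strand: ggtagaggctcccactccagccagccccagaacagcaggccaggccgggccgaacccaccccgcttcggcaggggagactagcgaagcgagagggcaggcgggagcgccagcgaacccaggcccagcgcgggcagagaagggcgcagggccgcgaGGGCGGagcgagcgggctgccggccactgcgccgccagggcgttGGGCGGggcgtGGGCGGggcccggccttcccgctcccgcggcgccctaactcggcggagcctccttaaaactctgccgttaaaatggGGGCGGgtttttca
Ccnd3 upstream start, chr17:47504801-47505100, plus strand: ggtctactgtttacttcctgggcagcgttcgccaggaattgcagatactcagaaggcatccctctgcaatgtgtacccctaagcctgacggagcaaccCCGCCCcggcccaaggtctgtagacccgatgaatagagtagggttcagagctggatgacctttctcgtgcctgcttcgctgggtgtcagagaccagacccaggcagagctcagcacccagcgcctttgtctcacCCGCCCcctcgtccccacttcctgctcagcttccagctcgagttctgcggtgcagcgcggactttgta

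The upstream Skp2 window held 1 CCAAT box and 2 CHR matches, the CHR matches beginning at positions -63 and -55 from the start. The downstream window held 1 GC box match. The Cks1b window held 4 CCAAT boxes, 2 CHR matches and 1 GC box, and no CCAAT box overlapped a CHR match. CHR matches were thus found in the promoters of Skp2, which rose, and of Cks1b, which was not called. Of 32851 mouse promoter windows of the same length, 17.9% held a CHR match, 37.4% a CCAAT box and 35.7% a GC box. The printed Cdkn2c window held 4 GC boxes and that of Ccnd3 held 2. The windows not printed, at the downstream starts of Cdkn2c and Ccnd3, each held 1 CCAAT box, and that of Ccnd3 also 2 GC boxes. A CCAAT box was found in at least 1 window for 6 of the 8 genes. The 8 genes have 12 windows between them, so this count by gene is not one to set against the share of all windows. The E2F motif, in 5.17% of all windows, was found in both windows of Cdkn2a and the 1 of Cdk6, and in no other window of the 8 genes. The E box, in 7.15% of all windows, occurred 4 times in the Cdk4 window and once each in those of Cdk6 and the downstream Cdkn2c start. A match says only that these letters are present.

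Other genes of the same pathway were read from lists written with earlier results of these data known. Among cyclin E, cyclin A, Cdk2 and their activators, 0 of 9 genes were called by limma (3.46% of all tested genes), 5 of 9 had an unadjusted p under 0.05 (24% of all), and the median log2 difference was 0.73 (-0.01 over all tested genes). The nearest to a call was Cdc25a, the phosphatase that activates Cdk2. Its brightest probe set read 9.39, 9.67 and 8.37 in null arrays against 7.71, 7.73 and 7.21 in heterozygous arrays (log2 difference 1.59, SE 0.37, limma adjusted p = 0.0748). The groups did not overlap, and a dimmer probe set of Cdc25a (1417131_at) was called (difference 1.51, SE 0.27, limma adjusted p = 0.0447). For 5 of these 9 genes the groups did not overlap (32.2% of all tested genes).

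Among the other inhibitors of cyclin-dependent kinases, 0 of 5 were called by limma (3.46% of all tested genes) and 1 had an unadjusted p under 0.05 (24% of all). The median log2 difference was 0.55, with 3 of 5 above 0: Cdkn1c at 1.47, Cdkn3 at 0.64 and Cdkn2d at 0.55 (limma adjusted p = 0.338, 0.462 and 0.352). Cdkn1a, which encodes the inhibitor p21, was at -0.93 (limma adjusted p = 0.384). The gene with an unadjusted p under 0.05 was Cdkn2b, the INK4 gene beside Cdkn2a, at 11.02, 11.12 and 10.87 in null arrays and 11.50, 11.76 and 11.77 in heterozygous arrays. All null values lay below all heterozygous ones (log2 difference -0.67, SE 0.17, limma adjusted p = 0.0858). The sign is opposite to that of Cdkn2c, and this contrast between the INK4 genes was not tested.

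Among 13 tested genes of ubiquitin ligases of the SCF and APC/C types and their regulators, 1 was called (3.46% of all tested genes). Fbxw7, the F-box protein that directs cyclin E to degradation, rose 2.13-fold. It read 9.99, 10.38 and 10.05 in null arrays and 8.98, 9.0 and 9.16 in heterozygous arrays, with no overlap (log2 difference 1.09, SE 0.18, limma adjusted p = 0.0377). Its dimmer tested probe set was called too (difference 1.48, SE 0.21, limma adjusted p = 0.0272). Without heterozygous array 3 the brighter stayed called (limma adjusted p = 0.0456), and without any other array it did not (differences 0.97 to 1.17, limma adjusted p 0.0712 to 0.128). It was also lost with ordinary t statistics (0.108), with the replicate number as a block (0.0889) and with the level of proliferation genes as a covariate (0.0955). Genes of the SCF core differed little: Skp1 by -0.01 and Cul1 by 0.21 (limma adjusted p = 0.981 and 0.452). For Cul1 all null values still lay above all heterozygous ones. Rbx1 differed by 0.17 (limma adjusted p = 0.729), but was read near the minimum, at means of 3.99 in null and 3.81 in heterozygous arrays. The list's median was 0.17.

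Among 17 tested genes listed as regulators of the G1 genes above, 1 was called by its brightest probe set (3.46% of all tested genes), and it fell. Foxo1, a transcription factor known to induce Cdkn1b, read 7.33, 6.06 and 6.74 in null arrays and 8.72, 10.07 and 9.09 in heterozygous arrays. The groups were well apart, and Foxo1 fell by 2.58 on the log2 scale, or 5.99-fold (SE 0.46, limma adjusted p = 0.0449). Its other 3 tested probe sets had differences of -2.15, -1.89 and -0.29, none of them called (limma adjusted p = 0.0551, 0.109 and 0.355). Without any 1 array the call on Foxo1 was lost (differences -2.89 to -2.2, limma adjusted p 0.0545 to 0.150). It was also lost with a minimum of 2 or none (0.0524 and 0.0619), with ordinary t statistics (0.152), with the replicate number as a block (0.106), without probe sets of the s or x type (0.0551), with the mean of its probe sets (difference -1.73, 0.0568) and with the level of proliferation genes as a covariate (0.125). A probe set of the s type can hold probes that match more than 1 transcript, and the called one is of that type. Foxo3 and Foxo4, of the same family, differed by 0.01 and -0.15 (limma adjusted p = 0.993 and 0.784). Ets1, a transcription factor known to induce Cdkn2a in human cells, had a difference of 1.27 in its brightest probe set, not called but with no overlap (SE 0.26, limma adjusted p = 0.0570), and a dimmer one (1422028_a_at) was called higher (difference 1.66, SE 0.24, limma adjusted p = 0.0308). Rnf123 and Cryab, of the same list, were lower in null arrays, by -0.74 and -0.54 in their brightest probe sets. They were not called but had no overlap (limma adjusted p = 0.0579 and 0.196). Of the 17 genes 4 had an unadjusted p under 0.05 (24% of all tested genes). The groups did not overlap for 5 (32.2% of all), and 9 had a difference above 0 (48.7% of all). The list's median was 0.01.

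**Figure D3:**
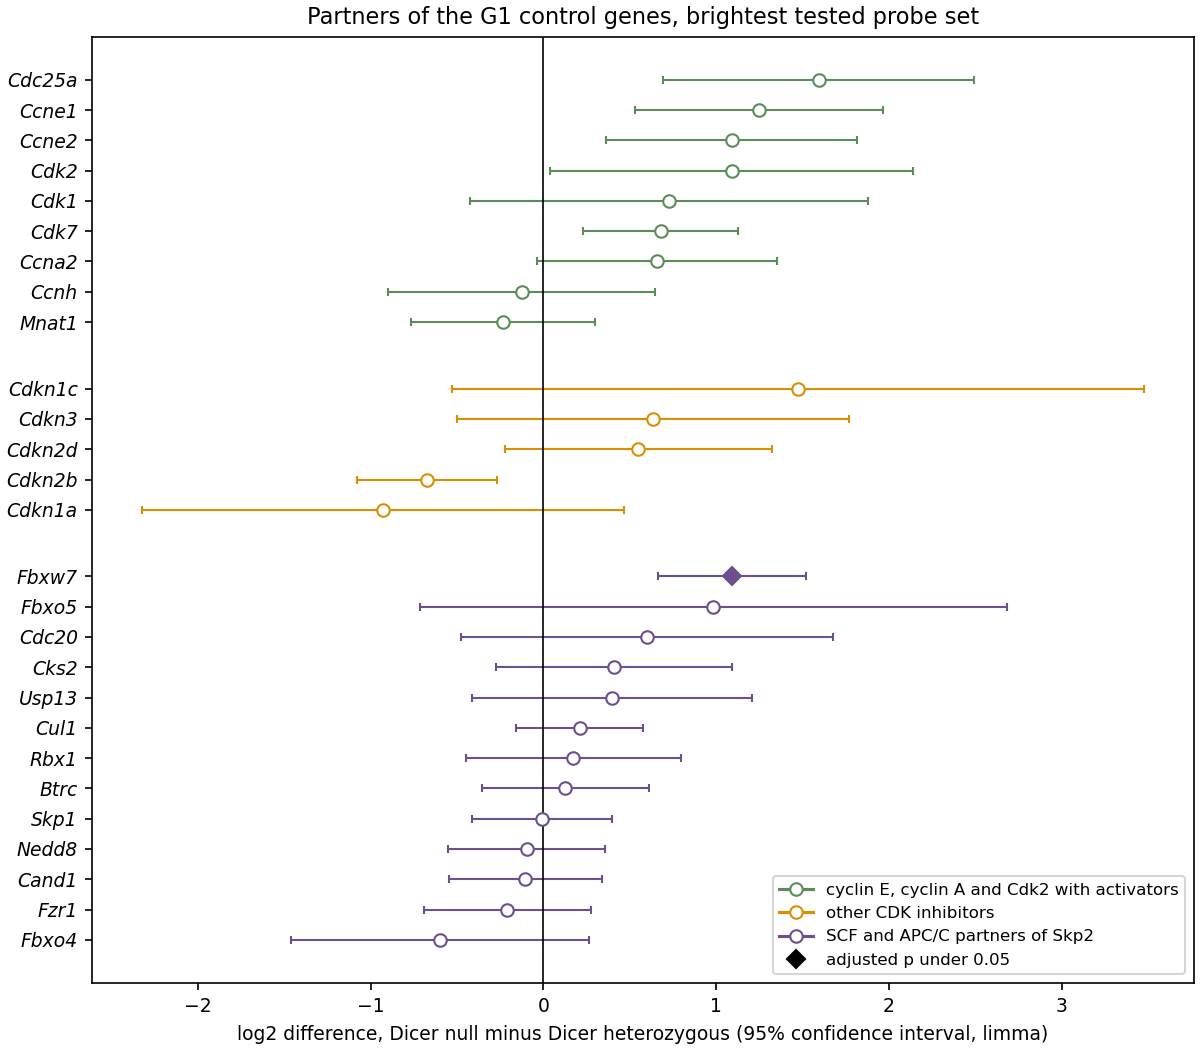
Log2 difference (Dicer null minus Dicer heterozygous, horizontal axis) with its 95% confidence interval for the brightest tested probe set of 27 genes of the same pathway, in 3 lists by colour. The filled diamond marks an adjusted p under 0.05. The list drawn as partners of Skp2 also holds other genes of these ligases, such as Fbxw7. Cdc25a, Cdkn1c, Ccne1, Ccne2 and Cdk2 lie at 1.09 to 1.59, with the widest interval that of Cdkn1c (-0.53 to 3.48), and Fbxw7 at 1.09 is the called one. Below 0 lie Cdkn1a, Cdkn2b and Fbxo4 (-0.93 to -0.60) and, closer to 0, Mnat1, Fzr1, Ccnh, Cand1, Nedd8 and Skp1.

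Levels of the G1 genes were set beside those of the proliferation genes, array by array. Of 27 tested probe sets of the 10 genes, heterozygous array 3 was the lowest array for 12, heterozygous array 1 for 12, and null array 2 the highest for 19. Of the 19, Ccnd2 gave 7 and Skp2 5. Ccnd2 gave 7 of the 12 for heterozygous array 1, and Skp2 4 and Ccnd1 3 of those for heterozygous array 3. Probe sets of a gene read the same RNA samples, so these counts are not of independent members. Heterozygous array 3 also had the lowest level of the proliferation list and null array 2 the highest. Heterozygous array 1, the lowest for as many probe sets, was at -0.06 in the proliferation list. That list had 0 of 32 genes called by limma (3.46% of all tested genes) and 8 with an unadjusted p under 0.05 (24% of all). For 17 of the 32 the groups did not overlap (32.2% of all tested genes). The list's median difference was 0.68 (-0.01 over all tested genes), with 32 of 32 above 0 (48.7% of all). Its smallest p was that of Cdc6, a replication licensing factor (log2 difference 1.30, limma adjusted p = 0.0570). With that median entered per array as a covariate in the model, a setting added after the data were seen, the log2 difference of Skp2 was 1.02 (SE 0.20), that of Cdkn2c 0.91 (SE 0.19) and that of Ccnd3 1.24 (SE 0.29). None was then called (limma adjusted p = 0.0855, 0.0930 and 0.109), and 178 of all probe sets were (0.73%). Under the covariate the difference of Cdk6 was 0.33 in its brightest probe set (1435338_at) and 1.02 in the dimmer 1455287_at. Without the covariate these were 0.79 and 1.11. The difference of Cks1b under the covariate was -0.09 in its brightest probe set. The covariate was higher in all null arrays than in all heterozygous ones, so its effect and that of genotype cannot be fully told apart. How far proliferation accounts for these values was not tested further.

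**Figure D4:**
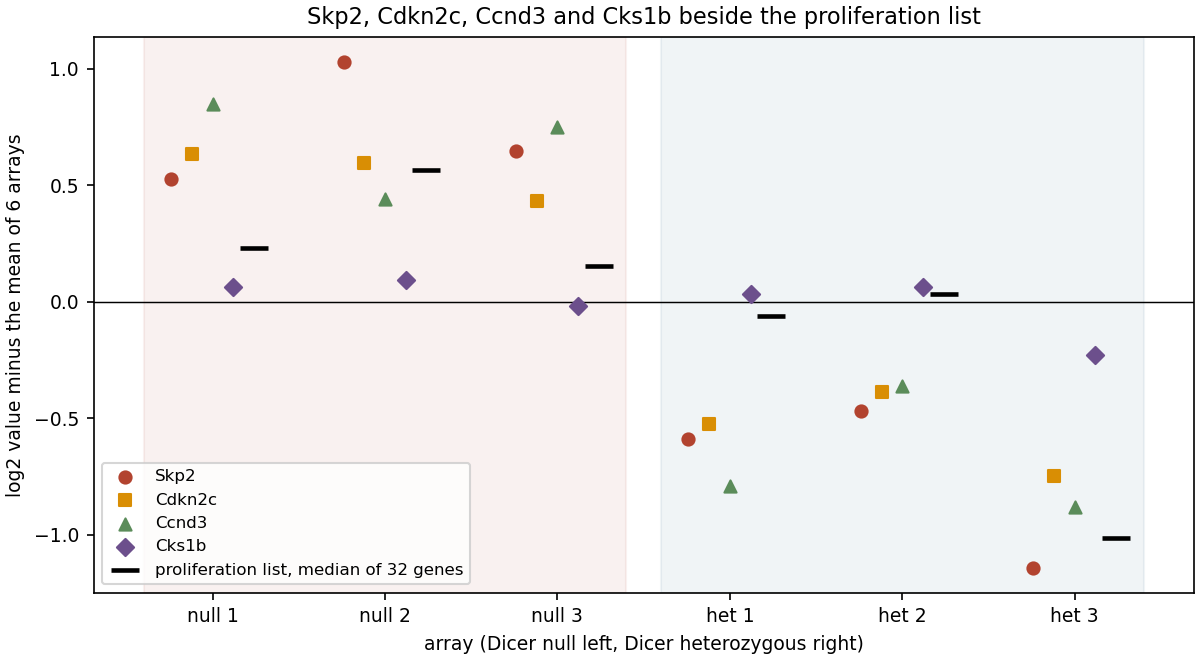
Log2 value minus the mean of the 6 arrays (vertical axis) for Skp2, Cdkn2c, Ccnd3 and Cks1b, and the median of 32 proliferation genes (black bars), in the 3 Dicer null arrays (left) and the 3 Dicer heterozygous arrays (right). The proliferation list is at 0.23, 0.57 and 0.15 in null arrays 1, 2 and 3, and at -0.06, 0.03 and -1.02 in heterozygous arrays 1, 2 and 3. Skp2, Cdkn2c and Ccnd3 are above 0 in all null arrays and below 0 in all heterozygous ones.

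For each gene that rose, the 3 named genes with the highest Pearson correlation over the 6 arrays were listed from 10978 candidates. With 6 arrays in 2 groups high correlations are common, and the values describe these arrays only. For Skp2 they were Exo1 (r = 0.997), a nuclease of DNA repair, Tnrc6a (0.996), a partner of Argonaute proteins, and Dna2 (0.996), a nuclease and helicase of replication, and 229 genes had an r over 0.95. Exo1 and Dna2 were called themselves (log2 differences 1.71 and 2.84, limma adjusted p = 0.0436 for each). Tnrc6a was not (0.82, limma adjusted p = 0.0645). For Cdkn2c they were Phtf2, Hmgb2, a chromatin protein, and Zfand4 (r = 0.997, 0.996 and 0.995), all called, with 167 genes over 0.95. For Ccnd3 they were Wwc2, Smarcd2, a subunit of SWI/SNF chromatin remodelling complexes, and Asap2 (r = 0.997, 0.994 and 0.993), none of them called, with 112 genes over 0.95.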

How the data were processed

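RNA from 3 Dicer null and 3 Dicer heterozygous sarcoma samples was hybridised to Affymetrix 3′ arrays as biotin-labelled cRNA, per the labels' protocols. The deposited values are the authors' log2 summaries, 1 for each probe set, made with R 2.11.1 and GCRMA 2.20.0 per the submitters' processing notes. GCRMA corrects background by probe sequence, quantile-normalizes arrays and summarises probes. The sources used here do not give its settings or chip definition file. The log2 scale was read from the range, 0.40 to 14.18. Quantile normalization removes any overall shift in RNA amount, and differences near a value of 3 or below depend on the background model. No read depth applies: 3 arrays per group limit the precision.

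Probe sets were named from the platform annotation: 34945 have 1 gene symbol, 932 several and 9160 none. Entrez IDs matched 34741 of the first kind to the gene table of GRCm38.p6, and 0 symbols changed. Samples were grouped by title. Probe sets with a mean of at least 3 (24385; 20652 left out) entered limma 3.58.1 in R 4.3.3 (lmFit, eBayes, no block, two-sided), with Benjamini-Hochberg adjustment over all of them at 0.05. For each gene the brightest tested probe set (highest mean) was read. The members and lists were chosen with earlier results of these data known. All members were named, with up to 4 called genes of each other list or its smallest p. For each called member the 3 most correlated genes were named, leaving out Riken clones and predicted genes. Genes outside this rule are named only beside these: Cdk2, Ccne1, Ccne2, Skp1, Cul1, Rbx1, Foxo3, Foxo4, Ets1, Rnf123 and Cryab. So are those named from the plot of pathway genes. Krt18 and Thy1 were also named, as markers chosen after their values were seen. The smallest p of the mesenchymal, leukocyte and epithelial markers were those of Pdgfrb, Coro1a and Epcam (limma adjusted p = 0.186, 0.286 and 0.488). Skp1 was listed under 2 symbols and counted as 1 gene.

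No 2 arrays held identical values. Arrays correlated at 0.988 to 0.991 among null, 0.972 to 0.988 among heterozygous and 0.963 to 0.981 between the groups. Simulated data of 24385 probe sets for this comparison held 67 changed 2-fold, 67 changed 4-fold and 66 changed 16-fold. The recovery of limma was 11.9%, 64.2% and 87.9% of these. Of its 113 calls 4 were false, and it made 0 calls on unchanged data. Such rates depend on the share of probe sets changed, so they need not hold for the real arrays. Partner genes were compared by exact permutation in scipy 1.17.1. Figures used matplotlib 3.10.9. Alternatives were other or no minimums, trend and robust moderation, ordinary t statistics, repeated quantile normalization, centring, weights for arrays, a block for the replicate number, other probe sets per gene, each array left out, and a proliferation covariate.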

Additional observations from a re-analysis of the deposited data

How the results depend on the processing

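In limma 6 probe sets of the G1 genes, 3 genes (Skp2, Ccnd3, Cdkn2c) and 756 probe sets in all were called. Minimums of 2, 4 or none, repeated quantile normalization, centring and other choices of probe set kept the same 3 genes. Trend and robust moderation and array weights called these and Ccnd1, and array weights called 2949 probe sets in all. Ordinary t statistics in limma's model called 0 probe sets, 0 of them G1 probe sets, and 0 G1 genes, with 4873 probe sets and 4 G1 genes at an unadjusted p under 0.05. With the replicate number as a block, limma called 116 probe sets, 1 G1 probe set (Skp2, 1418969_at) and 0 G1 genes (5 at an unadjusted p under 0.05; adjusted p = 0.0758 for Skp2, 0.0768 for Cdkn2c and 0.0940 for Ccnd3). The pairs with the same number had correlated deviations of -0.06, 0.11 and 0.24. For 3 of 6 arrays the best match in the other group had the same number. Neither these values nor the labels settle whether arrays with the same number share a batch. Without 1 array, 44 to 857 probe sets, 0 to 4 G1 probe sets and 0 to 2 G1 genes were called by limma, with 4 or 5 G1 genes at an unadjusted p under 0.05. The 2 were Skp2 and Cdkn2c, without heterozygous array 3. In all alternatives together the log2 difference stayed between 1.02 and 2.26 for Skp2, 1.2 and 1.52 for Ccnd3, and 0.91 and 1.19 for Cdkn2c. The proliferation covariate, added after the data were seen, left 178 probe sets, 0 G1 probe sets and 0 G1 genes called by limma (4 at an unadjusted p under 0.05). Reversed signs arose only near 0: Cks1b at -0.0017 without heterozygous array 3 (up to 0.14 without another) and -0.087 with the covariate, and Cdk4 at 0.033 without null array 3, 0.0033 without heterozygous array 2 and 0.0083 without heterozygous array 3 (down to -0.052 without another). The fits that leave 1 array out hold 5 arrays each and still differ in their counts. The cause of these changes was not tested. The alternatives for Fbxw7 and Foxo1 were run after their calls were seen; with the replicate block neither was called (limma adjusted p = 0.0889 and 0.106).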
